A study of Mus musculus with 6 samples.

Results

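Transcripts of 10 interferon-inducible GTPases were followed in macrophages sorted from Day 3 skin wounds of young and aged mice. They comprised the guanylate-binding proteins (GBP) Gbp2, Gbp3, Gbp5, Gbp7 and Gbp9 and the immunity-related GTPases (IRG) Igtp, Irgm1, Irgm2, Iigp1 and Tgtp2. The 10 genes were chosen from the difference between aged and young samples in these same data. Their age difference is therefore given here as a description, and nothing is supported with it. Each symbol matched a row of the expected count table, so that 10 of its 15168 genes were described, and all 10 were among the 11878 genes that passed the filter on low counts. The samples came from wild-type female C57BL/6J mice, 12 weeks old in the young group and 24 months old in the aged group, with 3 samples (A, B and C) in each. Each mouse had received a pair of full-thickness dorsal skin wounds, 10 mm across, and the labels name no drug or transgene. Cells positive for CD45, CD11b, F4/80 and CD64 had been sorted without a step to remove Ly6G-positive neutrophils. RNA was amplified with a low-input kit (SMART-Seq v4) before sequencing, and the sources used here do not state whether a sample was 1 mouse or a pool. Because whole sorted populations were sequenced, fewer cells of a type and less RNA per cell cannot be told apart.

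Both families are large sets of GTPases that interferon-gamma strongly induces in macrophages. Interferon-gamma binds its receptor, the kinases JAK1 and JAK2 pass the signal on, and transcription factors such as IRF1 help to switch on the GTPase genes. The GBP proteins gather on vacuoles that hold microbes and on bacteria in the cytosol, where they help to break the vacuole and to start inflammasome signalling. Among the IRG proteins, Irgm1, Irgm2 and Igtp (also called Irgm3) are regulators that keep the others inactive on the membranes of the cell itself. Iigp1 (Irga6) and Tgtp2 (Irgb6) are effectors that coat the vacuole of the invader.

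Sequences directly before the start of these genes are shown first. The letters themselves were not used in the choice. The members are interferon-inducible genes, however, so that interferon-response patterns before them are not independent of it. The search covered the 250 bases before each start in the RefSeq promoter table of GRCm38.p6, in which 8 of the 10 members were matched, all but Gbp9 and Iigp1. A pair of letter patterns were searched on both strands: the gamma-activated site (GAS) TTCNNNGAA, which reads the same on either strand and is named for its part in the response to interferon-gamma, and the core of the interferon-stimulated response element (ISRE) GAAANNGAAA, bound by IRF factors. The patterns were counted separately and may overlap. The ISRE core was found in 8 of 8 members and the GAS letters in 5 of 8, namely Gbp5, Gbp7, Igtp, Irgm2 and Tgtp2. Of 7 other family genes whose windows were read, 2 held both patterns, Tgtp1 and Gm12250, and 5 held neither, among them Ifi47, Gm5431 and 9930111J21Rik2. Gbp3 has a further annotated start, whose window held neither pattern. The RefSeq starts differ in part from those of the counted genes. This further window and those of Gbp5, Irgm1, Irgm2 and Tgtp1 lie inside the counted span of their gene, which for Irgm2 begins at chr11:58199618. Over all 32851 windows of the table, with no chromosome left out, 2.98% held the ISRE core, 7.02% held the GAS letters and 0.332% held both. In Tgtp2, Igtp and Irgm2, and in Tgtp1, a paralog of Tgtp2 in the same cluster, the GAS letters ended 2 bases before the ISRE core. That arrangement, described after it was seen, occurred in 5 of the 32851 windows (0.0152%), those of Tgtp1, Tgtp2, Igtp, Irgm2 and Gm12185. Only pairs with the ISRE core downstream and on the strand of the gene were counted, and mirrored pairs were not. The windows below run 5′ to 3′ on the strand of the gene, with the matched letters in capitals. They lie at chr11:49064224-49064343 (minus strand), chr11:48992265-48992384 (minus strand), chr11:58199436-58199555 (plus strand), chr11:58214852-58214971 (plus strand) and chr3:142530201-142530320 (plus strand).
Tgtp2: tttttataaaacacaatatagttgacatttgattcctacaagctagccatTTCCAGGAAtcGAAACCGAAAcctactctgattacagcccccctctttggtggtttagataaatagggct
Tgtp1: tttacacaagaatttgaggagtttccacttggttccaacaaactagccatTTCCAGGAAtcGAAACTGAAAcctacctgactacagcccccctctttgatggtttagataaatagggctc
Igtp: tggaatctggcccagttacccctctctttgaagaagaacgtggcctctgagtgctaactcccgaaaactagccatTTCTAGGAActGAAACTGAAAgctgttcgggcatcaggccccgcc
Irgm2: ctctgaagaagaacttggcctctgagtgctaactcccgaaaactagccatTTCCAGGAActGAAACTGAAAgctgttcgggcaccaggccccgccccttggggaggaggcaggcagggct
Gbp7: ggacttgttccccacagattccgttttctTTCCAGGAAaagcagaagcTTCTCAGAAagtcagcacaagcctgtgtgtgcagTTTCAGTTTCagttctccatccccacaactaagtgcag
In Gbp7, which has a pair of GAS matches, the ISRE core stands on the other strand, printed as its reverse complement, with 25 bases between it and the nearer GAS match. Igtp and Irgm2 were identical at 68.1% of the aligned positions of their 250 bases, and Tgtp1 and Tgtp2 at 61.5%, against 44.9% for Igtp and Tgtp2, 50.0% for Irgm2 and Tgtp2 and 50.9% for Gbp3 and Gbp7. A match of letters describes the sequence and does not show that a factor bound there.

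**Figure D1:**
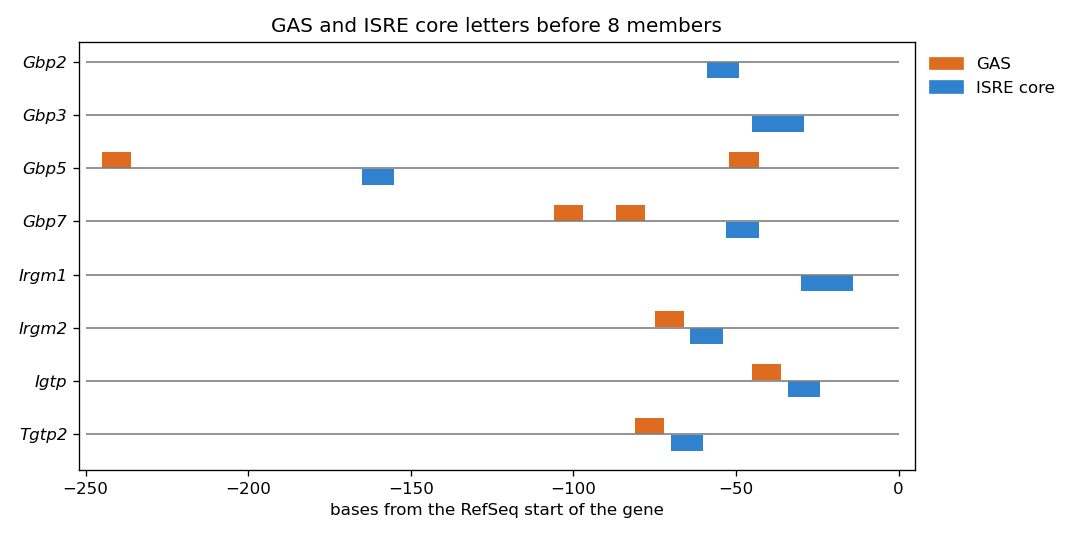
Position of the GAS letters (orange, above the line) and of the ISRE core (blue, below the line) in the 250 bases before the RefSeq start of 8 members, with the distance from the start on the x axis. All 8 genes have an ISRE core, 5 also have GAS letters, and in Tgtp2, Igtp and Irgm2 the pair lies 2 bases apart.

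The 6 samples held 15270103 to 17927483 expected counts. A single count was worth 0.0553 to 0.0701 CPM (counts scaled to library size, with TMM factors), and the lowest count of any member in any sample was 9, for Iigp1. Transcripts of the sorted proteins were present in each sample, with Fcgr1 (CD64) at 422 to 514 CPM and Adgre1 (F4/80) at 172 to 357 CPM. The median log2 fold change of all tested genes was -0.02. Fold changes are of aged against young samples, so that a negative value means a lower level in aged macrophages.

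Of the GBP members, Gbp3, Gbp7 and Gbp9 were lower in aged than in young macrophages, by a little over 2-fold each, while Gbp2 and Gbp5 overlapped between the ages. Gbp7, known for its part in the assembly of the oxidase that makes reactive oxygen, was at 21.7, 37.1 and 20.01 CPM in young samples A, B and C and at 9.67, 14.8 and 14.6 CPM in aged samples A, B and C. Every aged sample lay below every young one, and the means were 26.3 ± 9.43 and 13.0 ± 2.91 CPM (SD, n = 3), a log2 fold change of -1.01 (standard error, SE, 0.27). Gbp9 was at 14.4, 28.3 and 19.0 CPM in young samples and at 10.1, 8.53 and 11.5 CPM in aged samples. The groups did not overlap, and young B was the high sample, as it was for Gbp7. The log2 fold change of Gbp9 was -1.03 (SE 0.26), from 20.6 ± 7.05 to 10.0 ± 1.48 CPM (SD, n = 3). Gbp3 was at 14.2, 34.4 and 20.3 CPM in young samples and at 13.1, 7.39 and 11.9 CPM in aged samples. Young A and aged A, at 14.2 and 13.1 CPM, came close to touching, and the log2 fold change of -1.09 (SE 0.33) owed its size to young B. Without young B the log2 fold changes of Gbp3, Gbp7 and Gbp9 were -0.66, -0.67 and -0.73, and none of them passed (edgeR adjusted p = 0.179, 0.107 and 0.0923). The call of Gbp3 was also lost with limma-voom (adjusted p = 0.0605) and, in edgeR, without the filter on low counts (adjusted p = 0.0511).

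Gbp2 and Gbp5 carry a lipid anchor signal at the end of the protein and are the family members most often linked to inflammasome activation, Gbp5 with NLRP3. Gbp2 was at 16.8, 32.0 and 30.1 CPM in young samples and at 25.8, 10.6 and 24.7 CPM in aged samples. Its aged samples A and C lay above young A, so that the groups overlapped, and the log2 fold change was -0.37 (SE 0.34). Gbp5 was scarce, at 1.49, 3.58 and 4.16 CPM in young samples and at 1.61, 3.76 and 2.96 CPM in aged samples. Its ranges almost coincided, with set A lowest at both ages, and the log2 fold change of -0.14 (SE 0.45) changed sign to 0.14 without young C and to 0.13 without aged A. Gbp2, Gbp3, Gbp5 and Gbp7 lie beside each other in 1 cluster on chromosome 3, and differences between genes of the cluster were not tested.

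Among the regulatory IRG members, Irgm1 and Igtp were lower in aged macrophages and Irgm2 overlapped. Irgm1, which is needed for autophagy and for the control of the effector IRG proteins, was at 64.2, 62.3 and 61.4 CPM in young samples and at 22.3, 31.8 and 38.4 CPM in aged samples. The young samples lay within 3 CPM of each other, every aged sample was far below them, and Irgm1 had the smallest relative spread of the 10 members in the young group. Its means were 62.6 ± 1.46 and 30.9 ± 8.08 CPM (SD, n = 3), a log2 fold change of -1.02 (SE 0.20). Igtp, a regulator that sits on the endoplasmic reticulum, was at 23.5, 41.6 and 40.0 CPM in young samples and at 6.80, 11.1 and 22.1 CPM in aged samples. Aged C, at 22.1 CPM, was only slightly below young A, at 23.5 CPM, while aged A and B were much lower. The log2 fold change of Igtp was -1.39 (SE 0.38), from 35.003 ± 10.04 to 13.4 ± 7.89 CPM (SD, n = 3). Irgm2, which shares its genomic neighbourhood and much of its promoter with Igtp, was at 9.51, 7.80 and 9.91 CPM in young samples and at 2.66, 8.98 and 7.29 CPM in aged samples. Aged A alone was clearly low for Irgm2, aged B was above young B, and the log2 fold change was -0.52 (SE 0.37).

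The effector Tgtp2 had the most negative log2 fold change of the 10 members. It was at 8.24, 22.9 and 27.3 CPM in young samples A, B and C and at 1.05, 3.06 and 4.82 CPM in aged samples A, B and C. All aged samples were below all young ones, with set A lowest at both ages, and the aged mean was 15.3% of the young mean (19.5 ± 9.98 and 2.98 ± 1.88 CPM, SD, n = 3). The log2 fold change was -2.70 (SE 0.53), or 6.55-fold between the means. Of the 150-base stretches of Tgtp2 transcripts in GENCODE vM21, 68.4% also occur in Tgtp1, and the expected counts of Tgtp2 were not whole in 4 of 6 samples. How reads were split between the pair therefore bears on its value, and with the counts of Tgtp1 and Tgtp2 added the log2 fold change was -2.59 (edgeR adjusted p = 0.0128). Iigp1, the other effector, was near the lower end of what was measured, at 1.27, 4.17 and 2.51 CPM in young samples and at 0.631, 2.61 and 0.556 CPM in aged samples. Aged B exceeded young A and C, and the log2 fold change of -1.05 had a standard error of 0.64. Without aged B it was -2.13, and Iigp1 then passed (edgeR adjusted p = 0.0473).

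**Figure D2:**
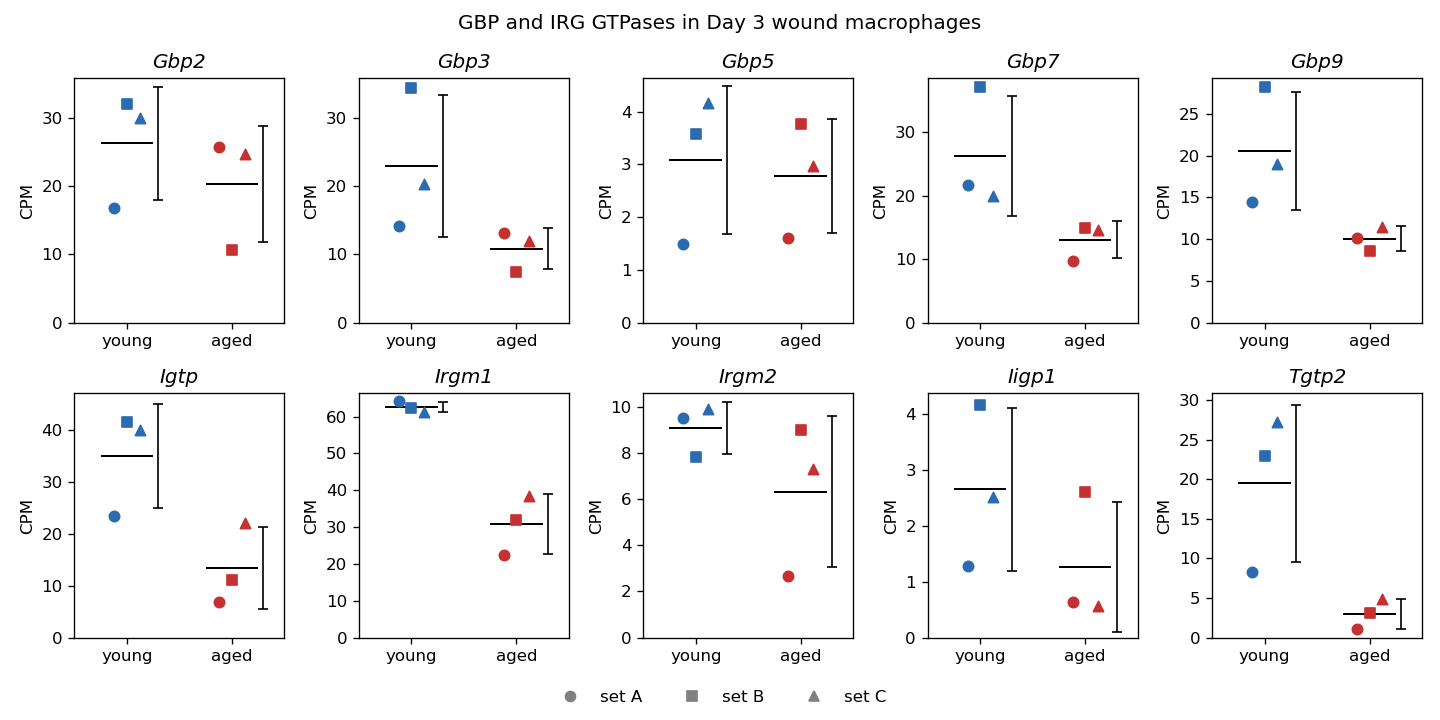
CPM of the 10 GTPases in the 6 samples (y axis, starting at 0), young in blue and aged in red, with the set letter as the symbol, the mean of 3 samples as a horizontal line and the SD as a bar at its side. Groups do not overlap for Gbp3, Gbp7, Gbp9, Igtp, Irgm1 and Tgtp2, and they do for Gbp2, Gbp5, Irgm2 and Iigp1.

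Over the 10 members, 6 had an adjusted p-value under 0.05 with a lower level in aged samples (quasi-likelihood test of edgeR, p-values adjusted by the Benjamini-Hochberg method over the genes tested, adjusted p from 0.0119 for Tgtp2 to 0.0456 for Gbp3), against 7.97% of all tested genes. The same 6, Gbp3, Gbp7, Gbp9, Igtp, Irgm1 and Tgtp2, were also over 2-fold, against 4.2% of all tested genes. For these 6 every aged sample was below every young one, which held for 19% of all tested genes. Since the members were chosen on this contrast, nothing is read from these counts. No member was called higher, by edgeR, DESeq2 or limma-voom or at an unadjusted p under 0.05 (0 of 10), where 9.73% of all genes were called higher, 4.59% with a change of over 2-fold, and 19.2% had every aged sample above every young one. The log2 fold change was negative for 10 of 10 members, with a median of -1.03, and for 51.2% of all tested genes. The calls depended on single samples. Without young C, 0 of the 10 members passed (the lowest adjusted p was 0.0621, and 6 had an unadjusted p under 0.05), and the share of all genes called lower was then 0.548%. Without young B and without aged A, 2 members passed in each case (2.71% and 4.26% of all genes), without aged C 3 (1.58%), without aged B 4 (4.98%) and without young A 6 (9.29%). The median log2 fold change of the members stayed between -1.18 and -0.67 in these 6 fits, and Gbp5 was the member that changed sign. Tgtp2 and Irgm1 passed in 5 of the 6 fits, Igtp and Gbp7 in 2, and Gbp3 and Gbp9 in 1. Iigp1, which was not called with all samples, passed in the fit without aged B and is 1 of the 4 members counted there.

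The 5 GBP members summed to 68.6, 135 and 93.5 CPM in young samples A, B and C and to 60.2, 45.1 and 65.7 CPM in aged samples. The 5 IRG members summed to 107, 139 and 141 CPM in young and to 33.5, 57.6 and 73.2 CPM in aged samples. Young A and aged C nearly met for the GBP sum, whereas the IRG sums were well apart. The aged mean was 57.5% of the young mean for the GBP sum and 42.5% for the IRG sum, and the difference between these shares was not tested.

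Levels were compared between members as CPM per kilobase of annotated exon. In young macrophages Igtp was the highest, at 17.3 ± 4.96 CPM per kb (SD, n = 3), followed by Irgm1 at 10.8 ± 0.251, Gbp2 at 10.4 ± 3.30, Gbp3 at 7.03 ± 3.19, Tgtp2 at 6.63 ± 3.396, Gbp7 at 4.68 ± 1.68, Gbp9 at 3.98 ± 1.36 and Irgm2 at 2.46 ± 0.303 CPM per kb. Gbp5 and Iigp1 stood at the bottom with 0.464 ± 0.211 and 0.455 ± 0.249 CPM per kb. The ranges of mean ± SD were apart between Igtp and Irgm1 and between Irgm2 and Gbp5, and overlapped between all other neighbours in that order. The SD is that of the samples and holds no uncertainty of the length. In aged macrophages Gbp2 was the highest, at 8.09 ± 3.37 CPM per kb, ahead of Igtp at 6.60 ± 3.90, and Tgtp2 stood eighth, at 1.01 ± 0.642 CPM per kb, between Irgm2 and Gbp5. In the aged group every pair of neighbours overlapped within mean ± SD.

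The order of the samples within a group was counted over the members. Young A was the lowest of the young samples for 7 of the 10 members, against 35.9% of all tested genes, and young B the highest for 6, against 34.4%. Aged A was the lowest of the aged samples for 6 of 10, against 37.1% of all tested genes, aged B for 3 and aged C for 1. The highest aged sample was A for 2 members (Gbp2 and Gbp3), B for 4 and C for 4. The members were chosen from these samples, and these shares were not tested. On the log2 scale, each gene centred on its own mean, the mean of the 10 members was 0.03, 0.90 and 0.67 in young A, B and C and -0.96, -0.39 and -0.24 in aged A, B and C. Gbp7, Gbp9 and Irgm1 stayed closest to this shared pattern, with mean absolute differences of 0.193, 0.201 and 0.201, and Tgtp2 was farthest from it, at 0.829, because its range was wider. Among 6492 other genes with a mean of at least 10 CPM, those with the most similar pattern over the 6 samples, by the mean absolute difference of centred log2 CPM, were Tmx2 (0.0785), Akr1b10 (0.0988), Dclre1c (0.110), Gm36161 (0.113) and Mpi (0.118). Tmx2 encodes a thioredoxin-related membrane protein, Dclre1c the DNA repair nuclease Artemis and Mpi mannose phosphate isomerase. Their likeness rests on 6 points and is a description.

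**Figure D3:**
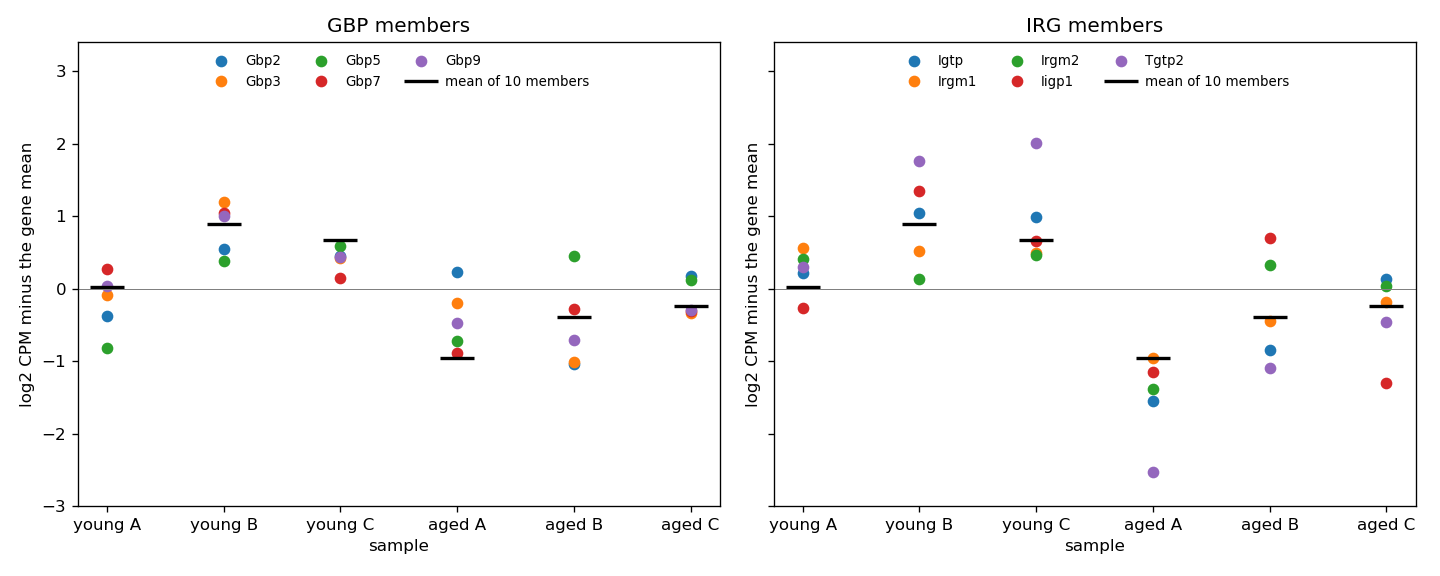
Log2 CPM minus the mean of the gene over the 6 samples (y axis) for the GBP members (left) and the IRG members (right) in each sample (x axis), with the mean of all 10 members as a black bar. The mean runs from -0.96 in aged A to 0.90 in young B, and Tgtp2 spreads widest.

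Beside the members, 22 further GBP and IRG genes were listed, from general knowledge and with earlier results of these data known. Of these, 14 were in the table and tested, 5 were lower in aged macrophages and 1 was higher (edgeR, adjusted p under 0.05, which 7.97% and 9.73% of all tested genes reached), and the median log2 fold change was -1.36, against -0.02 for all tested genes. Ifi47, an IRG protein of the effector kind, was the most abundant of them, at 38.4, 57.7 and 43.2 CPM in young and 11.8, 14.6 and 24.2 CPM in aged samples. The groups did not overlap, and Ifi47 fell, with a log2 fold change of -1.46 (SE 0.27, adjusted p = 0.0102 by edgeR). Gbp6 fell from 5.16 ± 2.62 to 1.26 ± 0.370 CPM (SD, n = 3, log2 fold change -2.01 with SE 0.47, adjusted p = 0.0206 by edgeR), although 59.1% of its 150-base stretches are shared with other genes, Gm43302 and Gbp10 among them. Gbp8 was at 1.33, 2.82 and 1.19 CPM in young and at 0.560, 0.255 and 0 CPM in aged samples, and fell, with a log2 fold change of -2.72 (SE 0.79, adjusted p = 0.0397 by edgeR). Its call was lost in edgeR without the filter on low counts (adjusted p = 0.0553). Gm5431 and 9930111J21Rik2, which share sequence with each other and with 9930111J21Rik1, fell with log2 fold changes of -1.98 and -1.87 (edgeR adjusted p = 0.0127 and 0.0250). With limma-voom, Gbp6 and 9930111J21Rik2 did not pass (adjusted p = 0.0519 and 0.0618). 9930111J21Rik1 itself was at -1.71 (edgeR adjusted p = 0.0556), and 64.5% of its stretches occur in other genes. It passed in 3 of 11 alternatives, with DESeq2 (adjusted p = 0.0248) and, in edgeR, with the set letter as a block and without young A (adjusted p = 0.0244 and 0.0202).

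Gbp4, Gm12250, Gm4951 and Tgtp1 had log2 fold changes of -1.27, -1.01, -1.58 and -1.02 and did not pass (edgeR adjusted p = 0.0920, 0.146, 0.278 and 0.522). Tgtp1 was at no more than 1.17 CPM in any sample and below Tgtp2 in each, at 0.955 against 3.06 CPM in aged B. Of its 150-base stretches, 62.5% also occur in Tgtp2, so that both levels depend on how reads were split. Gvin1, a very large inducible GTPase, and Gm4070, with which it shares 95.0% of its stretches, were at -0.27 and 0.34 and did not pass either (edgeR adjusted p = 0.332 and 0.396). Irgq, an IRG relative that has lost GTP binding, was at 0.27 (edgeR adjusted p = 0.685). Irgc1, an IRG relative best known from testis and without the interferon response of the others, rose from 0.553, 0.704 and 0.132 CPM in young to 7.15, 2.61 and 3.52 CPM in aged samples (log2 fold change 3.21 with SE 0.58, adjusted p = 0.00878 by edgeR), and it passed in 6 of the 6 fits that left out a sample. The count of these further genes called lower was 6 without young A (9.29% of all genes were then lower) and 3 without aged A or aged B (4.26% and 4.98%). It was 2 without young B (2.71%) and 1 without young C or aged C (0.548% and 1.58%).

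**Figure D4:**
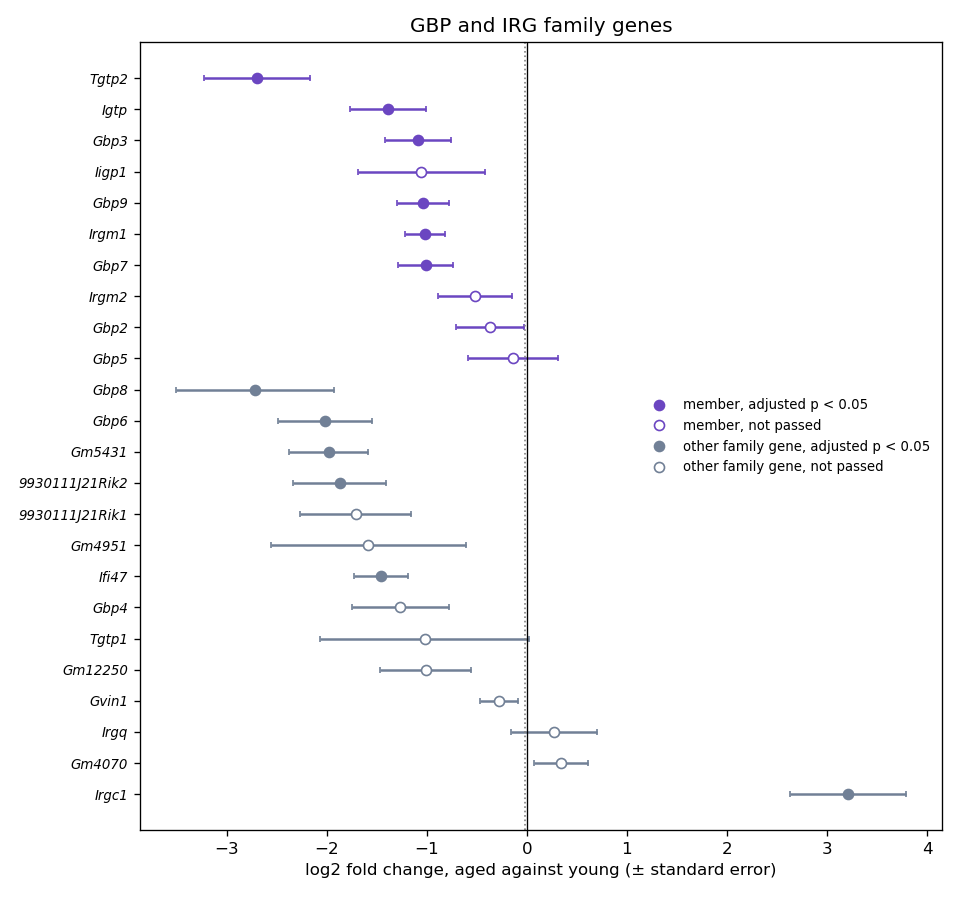
Log2 fold change of aged against young samples with its standard error (x axis) for the 10 members (purple) and 14 other family genes (grey), filled where the edgeR adjusted p was under 0.05. All but Irgq, Gm4070 and Irgc1 lie below 0, and Irgc1, at 3.21, is the single gene called higher.

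The genes lie in a few clusters, given here in mm10 from the table. Gbp5, Gbp7, Gbp3 and Gbp2 span chr3:142493978-142638009, and the nearest tested genes on either side, Pdlim5 and Kyat3, had log2 fold changes of 0.23 and -0.34 and did not pass (edgeR adjusted p = 0.416 and 0.616). Gbp8, Gbp9, Gbp4 and Gbp6 span chr5:105014150-105293699 on the minus strand, where the annotated spans of Gbp4, Gbp8 and Gbp9 overlap. The next gene there, Abcg3, was also lower, at -1.67 (edgeR adjusted p = 0.0123), and Lrrc8b on the other side did not pass (0.66, edgeR adjusted p = 0.298). Irgm1, Gm5431, 9930111J21Rik1, Tgtp1, 9930111J21Rik2, Tgtp2 and Ifi47 span chr11:48861968-49096975. Psme2b, inside that span and no family member, was at -0.69 (edgeR adjusted p = 0.0257), and the nearest tested genes outside it, Gm12184 and Zfp62, were at -0.06 and 0.18 (edgeR adjusted p = 0.801 and 0.562). Gm12250, Igtp and Irgm2 span chr11:58187739-58222783, and Igtp overlaps the first part of the annotated span of Irgm2 on the same strand. The nearest tested genes there, Mrpl22 and Zfp692, were at -0.97 and -0.70 and did not pass (edgeR adjusted p = 0.136 and 0.329). Beside Gm4951 and Iigp1 on chromosome 18, Isoc1, 1532 kb away, was at -0.73 (edgeR adjusted p = 0.0200), and Smim3 at 0.66 (edgeR adjusted p = 0.0555). Irgc1 and Irgq span chr7:24431922-24538601. Plaur, which lies inside that span and encodes the urokinase receptor, rose from 1169 to 3005 CPM (log2 fold change 1.36, edgeR adjusted p = 0.0117). Zfp428, also inside it, was at -1.62 (edgeR adjusted p = 0.0945), and the flanking genes Smg9 and Xrcc1 were at 0.47 and -0.47 (edgeR adjusted p = 0.290 and 0.148). Only 0.739% of the 150-base stretches of Igtp occur in Irgm2, and 8.77% of those of Gbp7 occur in Gm43802. Of the 150-base stretches of Gbp2, Gbp3, Gbp5, Gbp9, Irgm1 and Iigp1, 0% occurred in other genes. Sharing was larger for 50-base stretches, with 11.8% of those of Igtp in Irgm2 and 12.7% of those of Gbp7 in other genes. For the genes at 0% it then ran from 0.379% for Irgm1 to 8.05% for Gbp9.

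The interferon-gamma pathway above the GTPases was then read from ligand to transcription factor. Ifng itself had 10, 1 and 1 counts in young and 0, 0 and 1 in aged samples, too few to be tested. Of the receptor genes, Ifngr2 rose from 199 ± 24.3 to 355 ± 72.4 CPM (SD, n = 3, log2 fold change 0.83 with SE 0.20, adjusted p = 0.0208 by edgeR). It passed in 3 of the 6 fits that left out a sample, and not without young B, young C or aged C (edgeR adjusted p = 0.0748, 0.0951 and 0.083). The ligand-binding chain Ifngr1 was at 0.11 (edgeR adjusted p = 0.734), which turned to -0.03 without aged A. The kinase gene Jak2 was at 23.6, 17.1 and 22.6 CPM in young and 65.5, 53.1 and 69.1 CPM in aged samples. It rose, with a log2 fold change of 1.57 (SE 0.19, adjusted p = 0.00195 by edgeR), whereas Jak1 was at 0.40 (edgeR adjusted p = 0.0907). The transcription factor genes Irf1 and Irf8 were at -0.52 and 0.24, and neither passed (edgeR adjusted p = 0.161 and 0.359). Of the 5 inhibitors of the pathway, Socs1 and Socs3 rose (log2 fold changes 1.65 and 1.73, edgeR adjusted p = 0.0172 and 0.00898), Ptpn6 fell (-1.08, edgeR adjusted p = 0.0270), and Ptpn2 and Pias1 were at 0.48 and 0.25 and did not pass (edgeR adjusted p = 0.120 and 0.314). Of the 12 tested pathway genes, 2 were lower and 4 higher (7.97% and 9.73% of all tested genes were), and the median log2 fold change was 0.33.

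Of 19 other interferon-gamma targets tested, 4 were lower and 2 higher (7.97% and 9.73% of all tested genes were), and the median log2 fold change was -0.56. The immunoproteasome genes Psmb9, Psmb8 and Psmb10 fell, with log2 fold changes of -1.11, -0.71 and -0.65 (edgeR adjusted p = 0.0197, 0.0371 and 0.0492), as did Ifi35 (-0.68, edgeR adjusted p = 0.0371). Cxcl9, a chemokine that draws T cells, was at -1.14, but at 0.420 to 2.64 CPM it did not pass (edgeR adjusted p = 0.143). Nos2, the inducible nitric oxide synthase, rose from 13.3, 32.6 and 18.6 CPM in young to 64.9, 42.4 and 55.4 CPM in aged samples (log2 fold change 1.33 with SE 0.30, adjusted p = 0.0186 by edgeR). Cd274, which encodes the checkpoint ligand PD-L1, rose as well (1.23, edgeR adjusted p = 0.0122). For pathway and target genes together, the count called lower was 6 with all samples and 3 without aged B (4.98% of all genes were then lower). It was 1 without young B or aged C (2.71% and 1.58%) and 0 without young C (0.548%). The count called higher was 6 with all samples, 3 without aged C and 1 without young C. Over all genes, 351 of 12245 were higher without aged C and 151 of 12219 without young C.

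Type I interferons, which signal through a receptor of their own, also act on many GTPase genes. Of 19 type I target genes tested, 16 were lower in aged macrophages and 0 higher (7.97% and 9.73% of all tested genes were), and the median log2 fold change was -1.27. All 19 log2 fold changes were below 0. The count called lower was 2 without young C (0.548% of all genes were then lower), 4 without young B (2.71%) and 6 without aged B (4.98%). It was 9 without aged A (4.26%), 14 without aged C (1.58%) and 16 without young A (9.29%). The lowest were Mx2 and Ifit3, antiviral proteins (-2.37 and -2.36, edgeR adjusted p = 0.0159 and 0.00709), and the highest were Ddx58, which encodes the RNA sensor RIG-I (-0.78, edgeR adjusted p = 0.0190), and Rsad2 (-0.70, edgeR adjusted p = 0.107). In the receptor arm, Irf7 and Stat2 fell (-1.58 and -0.73, edgeR adjusted p = 0.0152 and 0.0437), Ifnar1 rose (0.64, edgeR adjusted p = 0.0267) and Tyk2 was at 0.20 (edgeR adjusted p = 0.542). Of 18 genes whose products act with GBP or IRG proteins in inflammasomes, autophagy or ubiquitin tagging, 1 was lower and 4 higher, beside 7.97% and 9.73% of all tested genes. Rnf213, a ubiquitin ligase recruited to bacteria, fell (-1.03, edgeR adjusted p = 0.0415), and Casp1 was at -0.57 (edgeR adjusted p = 0.0979). Nlrp3, the sensor with which Gbp5 is linked, rose from 16.8 ± 0.249 to 47.4 ± 5.01 CPM (SD, n = 3, log2 fold change 1.49, edgeR adjusted p = 0.00136), and Sqstm1, an autophagy receptor, rose by 0.98 on the log2 scale (edgeR adjusted p = 0.0206), as did Traf6 by 0.86 and Tax1bp1 by 0.58 (edgeR adjusted p = 0.0149 and 0.0495).

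**Figure D5:**
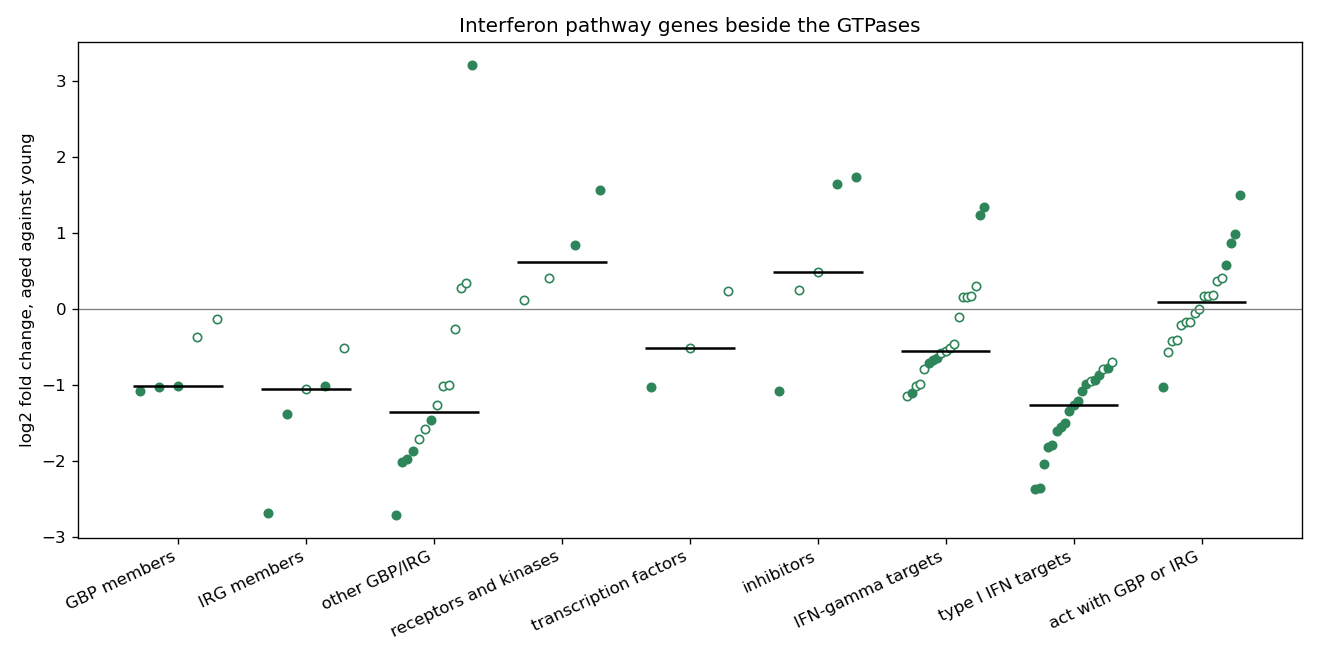
Log2 fold change of aged against young samples (y axis) for the tested genes of each group (x axis), with the median as a black line and filled points where the edgeR adjusted p was under 0.05. The type I targets lie entirely below 0 with a median of -1.27, the receptors and kinases lie above 0, and the inhibitors lie on both sides.

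Markers of other cells were read beside these values. The 12 T and NK cell markers, cells known to make interferon-gamma, summed to 6.28 to 10.0 CPM in young and 3.34 to 13.9 CPM in aged samples, with 9 in the table, and Cd3e and Cd3d at no more than 1.19 and 0.280 CPM. Without Gzmb, which was at 9.81 CPM in aged A, the sum was 5.09 to 7.41 CPM in young and 3.15 to 4.06 CPM in aged samples. Gzmb was set aside after its value was seen, and of the other 8 markers 5 had a lower and 3 a higher mean in aged samples. Those with a higher aged mean were Cd3e (0.233 and 0.777 CPM in young and aged samples), Trac (0.540 and 1.04 CPM, log2 fold change 0.91, edgeR adjusted p = 0.335) and Cd3d (0.136 and 0.178 CPM). Nkg7 was at 1.06 to 1.60 CPM in young and 0.127 to 0.679 CPM in aged samples (-1.80, edgeR adjusted p = 0.0586), and Klrb1c at 0.462 to 0.880 and 0 to 0.309 CPM. Gzma was at 0.594 to 1.33 CPM in young and at 0 in all aged samples. Of the 4 T and NK cell markers tested, 1 was called lower, Cd4 (-1.76, edgeR adjusted p = 0.0386), beside 7.97% of all tested genes. The neutrophil markers summed to 529 to 960 CPM in young and 745 to 1354 CPM in aged samples. Of the 9 tested, 4 rose, Cd177, Cxcr2, Lcn2 and Retnlg (9.73% of all tested genes were called higher), while Ly6g was at 6.14 to 10.9 CPM in all samples. Of the 10 macrophage markers, C1qa, C1qb and Adgre1 fell, Itgam rose and 6 did not pass (7.97% and 9.73% of all tested genes were lower and higher). The macrophage sum was 32020 to 46944 CPM in young and 22591 to 26996 CPM in aged samples. Most of it was Lyz2, at 24157 to 38843 and 16240 to 21389 CPM, which did not pass (-0.68, edgeR adjusted p = 0.0753). Monocyte markers (516 to 919 and 438 to 930 CPM) and dendritic cell markers (16.1 to 55.1 and 31.7 to 93.8 CPM) overlapped between young and aged samples. B cell markers summed to 4.62 to 12.9 and 2.61 to 4.08 CPM, nearly all of it Cd79b, which fell (-1.58, edgeR adjusted p = 0.0308). Without Cd79b that sum was 0.117 to 0.332 in young and 0.350 to 0.764 CPM in aged samples. Endothelial markers summed to 9.97 to 11.2 and 25.01 to 30.6 CPM through Pecam1, which rose (1.69, edgeR adjusted p = 0.00220), and the other 4 summed to 1.11 to 3.50 and 0.631 to 3.57 CPM. Aged B stood apart with keratinocyte and fibroblast markers of 110 and 119 CPM, against at most 1.24 and 41.0 CPM in any other sample. The part of these markers in the GTPase values was not tested.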

How the data were processed

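Bulk RNA of macrophages sorted from Day 3 wounds was sequenced as paired 150-base reads. The authors aligned reads with STAR 2.7.3a to mm10 and quantified them on Ensembl transcripts release 102 in Partek Flow, and they deposited the resulting expected counts per gene without normalisation. The table holds genes with a total of at least 10. Strand use in counting is not given in the sources used here. A further deposited table of counts divided by DESeq2 size factors, with the authors' p-values, adjusted p-values and fold changes, was not used.

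Expected counts were rounded (26.5% to 29.6% of values were not whole within 0.001) and tested with the edgeR 4.0.16 quasi-likelihood test in R 4.3.3, with TMM scaling, filterByExpr by age and Benjamini-Hochberg adjustment over 11878 genes. The fit held all 3 young and 3 aged samples. DESeq2 1.42.0, limma 3.58.1 (voom), other scaling and filters, a block for the set letter and leaving out each sample were alternatives, and the methods were tested on simulated data. Exon lengths and shared stretches of 150 and 50 bases were computed from GENCODE vM21 and promoters came from RefSeq. Figures were drawn in matplotlib 3.10.9 from tables read by pandas 2.3.3 under Python 3.11.15.

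The members and all lists of genes were chosen with earlier results of these data known. A pathway gene is not reported here. Named were the members, other GBP and IRG genes in the table, pathway genes, the 2 highest and 2 lowest genes of each further list and the 5 genes most like the members. Marker genes, inhibitors, nearest neighbours and any further targets were named after their values were seen. The labels do not say that samples came from separate animals, so the p-values measure the spread between these samples, which may be technical.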

Additional observations from a re-analysis of the deposited data

How the results depend on the processing

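The count of members called lower was 6 and ranged from 0 to 6 when each sample was left out in turn. For the other GBP and IRG genes the count called lower was 5 and ranged from 1 to 6, for interferon-gamma pathway and target genes it was 6 lower (0 to 8) and 6 higher (1 to 6), and for all genes 947 lower (67 to 1128) and 1156 higher (151 to 1574). The fits without young C gave the lowest of these counts, with that without aged C as low for the other GBP and IRG genes, and the cause was not tested. limma-voom called 3 of the other GBP and IRG genes lower, DESeq2 6, and edgeR with the set letter as a block 6. With at least 10 counts in every sample, 0 of them were higher, since Irgc1 was then not tested. With a 2-fold threshold added, 3 interferon-gamma pathway and target genes were lower, and over all genes 499 were lower and 545 higher. Of the single genes, the log2 fold change of Gbp5 ranged from -0.4714 to 0.1362 (above 0 without young C and without aged A) and that of Ifngr1 from -0.025 (without aged A) to 0.3071, and none of these values passed. Over all single-gene values, 324 kept direction and call, 45 lost the call, 5 gained it and 3 changed sign. Samples that share a set letter did not deviate together in all sets (r = 0.181, -0.02 and 0.114 for A, B and C), young C being closer to aged B (0.138). With the set letter as a replicate block, 5 members were lower, Gbp3 losing its call (adjusted p = 0.0859), and 912 genes were lower and 1202 higher over all. Depth limits 9 of the 24 family genes, with fewer than 100 counts in every sample, namely Gbp5, Iigp1, Gbp4, Gbp8, Tgtp1, Gm12250, Gm4951, 9930111J21Rik1 and Irgq.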
